A study of Mus musculus with 8 samples.

Results

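Pax7, Myf5, Myod1, Myf6, Calcr, Chodl, Megf10, Fgfr4 and Spry1, genes of the muscle satellite cell and of the myogenic programme, were followed in single-nucleus RNA-seq of the mouse gastrocnemius, a muscle of the calf. These 9 of the 21207 gene symbols listed in all 8 libraries were chosen by name and not by their measured values. All 9 had at least 1 UMI in each of the 8 libraries. A UMI is a tag by which each captured RNA molecule is counted once. Nuclei were isolated from frozen gastrocnemius of wild-type C57BL/6 mice in 4 groups of 2 libraries. Old mice were 20 months old and Young mice were 3 months old. Running mice were 11 months old when 2 months of treadmill running began, and Sedentary mice were 11 months old at the same start and did not run. Replicate 1 of each group was a 10x Genomics library, and replicate 2, whose labels name no platform, is called the second library set. The study's methods name DNBelab C of MGI beside 10x Genomics, without saying which libraries used it. Whether the libraries of a group came from separate animals is not given in the sources used here, so p-values measure the spread between libraries, which may be technical.

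Satellite cells are the stem cells of skeletal muscle and lie between the muscle fibre and its basement membrane. At rest they express the paired box factor Pax7. After injury they divide and fuse into fibres under basic helix-loop-helix factors such as Myf5 and Myod1. Myf6 is the member of that family best known from the nuclei of mature fibres. Receptors and surface proteins such as Calcr and Megf10, and the signalling inhibitor Spry1, are known from work on how satellite cells stay quiescent or return to rest.

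The libraries were unlike in depth and quality. After filtering they held 4228 to 12991 nuclei and 4765224 to 44389777 UMIs, with a median of 1664 to 3001 UMIs per nucleus in the 10x set and 909 to 1689.5 in the second library set. Old replicate 2 stood apart. Of its 4772 nuclei 68.4% fell in 1 unnamed cluster whose 10 leading genes had a median length of 1046 kb, and 75.4% of its nuclei were unnamed in all. Sedentary replicate 1 had 20.9% unnamed nuclei and Young replicate 2 had 21.7%, against 2.30% to 7.99% in the other 5 libraries. Between any 2 of the 10x libraries 30 to 46 cell barcodes were shared, at most 0.390% of the smaller library. Nuclei were clustered without the 9 genes, and classes were named from other markers, and the ending -like marks such a name. The muscle stem cell-like cluster was named from 9 of 11 listed markers, and 5 of the 9 genes kept out (Pax7, Chodl, Fgfr4, Megf10 and Calcr) were among its 10 leading genes. The summed level of the 11 markers was 1958 to 2742 counts per 1000000 UMIs (CPM) in it, 1437 to 1907 CPM in mural-like and 470 to 697 CPM in Type IIb-like nuclei of the 10x libraries. The muscle stem cell-like cluster held 1318 nuclei, all in the 10x set. Its share of nuclei was 2.85% for Old replicate 1 (333 nuclei, 95% exact binomial interval 2.56 to 3.17), 4.38% for Young (517 nuclei, 4.02 to 4.77), 2.55% for Running (331 nuclei, 2.28 to 2.83) and 1.29% for Sedentary (137 nuclei, 1.09 to 1.53). No such cluster formed in the second library set, which does not limit how many such nuclei those libraries held. Intervals cover counting error only.

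On GRCm38 the 9 genes lie on 8 chromosomes (GENCODE vM21). Pax7 spans 96.5 kb of chromosome 4 (139737062 to 139833528, minus strand) and Calcr 79.0 kb of chromosome 6 (3685680 to 3764714, minus strand, with Mir653 and Mir489 inside it). Chodl spans 20.8 kb of chromosome 16 (78930948 to 78951733, plus strand), Fgfr4 16.1 kb of chromosome 13 (55152640 to 55168759, plus strand) and Spry1 4.65 kb of chromosome 3 (37639947 to 37644598, plus strand). The start of Spry1 overlaps Gm42922 on the other strand. Whether counting used strand is not given in the sources used here, so their UMIs may not be separable. Myod1 spans 2.63 kb of chromosome 7 (46376474 to 46379099, plus strand). Myf5 (chromosome 10, 107482908 to 107486134) and Myf6 (chromosome 10, 107492853 to 107494737) lie on the minus strand with a gap of 6718 bp between them. In the 10x set together the largest part of the Myf5 UMIs lay in muscle stem cell-like nuclei, and that of Myf6 in Type IIb-like nuclei. Type IIb-like nuclei held the largest part of the Myf5 UMIs in Running replicate 1 (38.7%), Sedentary replicate 1 (50%) and the second library set (49.2%). Promoter windows of 300 bases were taken from RefSeq (GRCm38.p6) for 6 of the 9 genes. None was found for Myf6 and Myod1, and Megf10 was left out by rule. Printed are the windows of Chodl, Pax7 and Fgfr4, the 3 genes with the highest levels per kb of exon in muscle stem cell-like nuclei, and of Myf5, the helix-loop-helix factor of the set for which a window was found, each 5′ to 3′ on the gene's strand. Capitals mark the E-box letters CANNTG, which read the same on both strands and are the letters that the myogenic helix-loop-helix factors are known to bind.
Pax7, chr4:139832919-139833218, minus strand: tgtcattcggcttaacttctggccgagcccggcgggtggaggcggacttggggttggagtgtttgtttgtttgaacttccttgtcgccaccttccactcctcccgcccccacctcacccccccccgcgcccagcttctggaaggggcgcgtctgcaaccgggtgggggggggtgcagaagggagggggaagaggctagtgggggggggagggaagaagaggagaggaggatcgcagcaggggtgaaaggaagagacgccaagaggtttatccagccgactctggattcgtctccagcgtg
Chodl, chr16:78930698-78930997, plus strand: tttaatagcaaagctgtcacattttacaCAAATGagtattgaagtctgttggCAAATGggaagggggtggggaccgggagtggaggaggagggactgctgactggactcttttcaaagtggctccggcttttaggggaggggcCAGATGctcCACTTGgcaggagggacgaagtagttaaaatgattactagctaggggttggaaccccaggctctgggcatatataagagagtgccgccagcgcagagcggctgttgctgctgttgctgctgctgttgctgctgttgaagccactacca
Fgfr4, chr13:55152568-55152867, plus strand: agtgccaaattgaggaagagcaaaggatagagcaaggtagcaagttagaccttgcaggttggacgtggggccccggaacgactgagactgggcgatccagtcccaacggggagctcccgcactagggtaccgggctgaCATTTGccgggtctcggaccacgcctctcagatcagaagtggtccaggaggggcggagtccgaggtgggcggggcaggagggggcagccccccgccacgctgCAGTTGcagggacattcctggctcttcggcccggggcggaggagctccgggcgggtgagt
Myf5, chr10:107486085-107486384, minus strand: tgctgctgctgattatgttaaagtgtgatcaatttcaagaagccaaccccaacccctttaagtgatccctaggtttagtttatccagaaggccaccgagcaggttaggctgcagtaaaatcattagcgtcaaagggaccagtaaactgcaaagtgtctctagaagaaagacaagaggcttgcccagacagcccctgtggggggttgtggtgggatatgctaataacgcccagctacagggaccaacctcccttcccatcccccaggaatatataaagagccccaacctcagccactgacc
The Chodl window held 4 matches, the Fgfr4 window 2, and those of Pax7 and Myf5 held 0. The Spry1 window held 2 and the 2 Calcr windows held 0 and 1. Of all 32851 promoter windows of the same length 72.3% held at least 1 match, 39.6% at least 2 and 17.6% at least 3. The window of Myf5 held 1 match to TATAAA, which 13.6% of all windows held. A match is a run of letters and not a measured site.

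Pax7, Calcr, Chodl, Megf10 and Fgfr4 were largely genes of the muscle stem cell-like nuclei, Myf5 and Spry1 were shared between these and other classes, and Myod1 and Myf6 lay mostly in myonuclei. Muscle stem cell-like nuclei held 82.1% of the UMIs of Pax7 in the 10x set, 82.5% of Calcr, 82.0% of Fgfr4, 78.3% of Chodl and 73.0% of Megf10. They held 43.5% of the UMIs of Myf5, 20.8% of Spry1, 3.78% of Myod1 and 1.09% of Myf6. All 9 shares were lowest in Sedentary replicate 1, at 46.6% for Pax7, 51.4% for Calcr, 33.2% for Megf10, 53.5% for Fgfr4, 65.5% for Chodl, 14.5% for Myf5 and 10.5% for Spry1. Unnamed nuclei of that library held 23.2% of the Pax7, 26.5% of the Calcr, 37.7% of the Megf10, 17.3% of the Fgfr4 and 9.77% of the Chodl UMIs. Its muscle stem cell-like nuclei were also shallower, with a median of 973 UMIs against 1603 to 1821 in the other 3 libraries, and the part of this in the result was not tested. Levels between classes are descriptions with no test, since the classes come from the same nuclei.

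**Figure D1:**
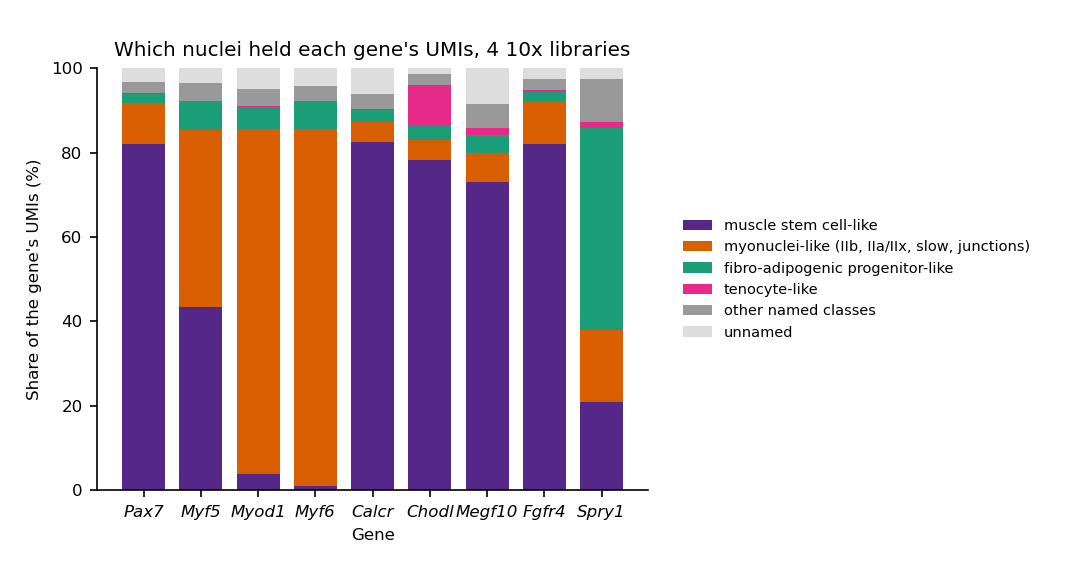
Share of each gene's UMIs (vertical axis, %) held by each group of nuclear classes in the 4 10x libraries together, for the 9 genes (horizontal axis). For Pax7, Calcr, Chodl, Megf10 and Fgfr4 the muscle stem cell-like part of the bar is 73.0% to 82.5%, for Myf6 it is 1.09%.

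Pax7, the factor by which satellite cells are usually recognised, reached 1094 CPM in muscle stem cell-like nuclei of the 10x set (775, 1378, 1022 and 905 CPM in Old, Young, Running and Sedentary). The next class was slow myonuclei-like, at 22.2 CPM, and Type IIb-like myonuclei stood at 3.22 CPM, a ratio of 339 to the muscle stem cell-like nuclei (95% interval 298 to 388). A Pax7 UMI was seen in 76.1% of muscle stem cell-like nuclei, whose median depth was 1671 UMIs. It was seen in 1.08% of Type IIb-like nuclei, whose median depth was 3185 UMIs and which are taken here as a reference for free RNA. This reference was among the lower classes. Tenocyte-like nuclei stood at 16.6, endothelial-like at 8.22 and adipocyte-like at 7.88 CPM, while lymphatic endothelial-like, B cell-like and T cell-like nuclei had 0 Pax7 UMIs. After every nucleus was thinned to 500 UMIs the shares were 41.2% and 0.154%.

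Myf5 and Myod1, the helix-loop-helix factors of committed and activated satellite cells, had low CPM in muscle stem cell-like nuclei, before gene length is taken into account. Per kb of gene Myf5 stood above Pax7 there, at 26.9 against 11.3 CPM, and Myod1 below it at 6.21. Myf5 stood at 86.8 CPM in muscle stem cell-like nuclei (95.5, 93.1, 73.6 and 62.6 CPM in Old, Young, Running and Sedentary), 38.4 times its level in Type IIb-like myonuclei (95% interval 31.4 to 46.9). It had a UMI in 14.9% of these nuclei against 0.800% of Type IIb-like nuclei (thinned, 4.86% and 0.117%). Myod1 stood at 16.3 CPM in muscle stem cell-like nuclei (95% interval 11.9 to 21.9, 44 UMIs), 15.5 CPM in myotendinous junction-like and 9.73 CPM in Type IIb-like myonuclei, and each class in its order of levels overlapped with the next. The muscle stem cell-like level was above the Type IIb-like level in 4 of 4 libraries, and the ratio of Type IIb-like to muscle stem cell-like was 0.596 (95% interval 0.440 to 0.827). The muscle stem cell-like values rested on 6, 20, 15 and 3 Myod1 UMIs in Old, Young, Running and Sedentary. In fibro-adipogenic progenitor-like nuclei, which are not of the myogenic lineage, Myod1 was at 2.73 CPM. A Myod1 UMI was found in 42 of the 1318 muscle stem cell-like nuclei (3.19%; thinned 1.37%), a share close to the 3.34% of Type IIb-like nuclei unthinned and above their 0.613% when thinned.

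Myf6, also called MRF4, was a gene of myonuclei. Its level was 45.0 CPM in myotendinous junction-like, 42.9 in neuromuscular junction-like, 34.3 in Type IIb-like, 30.1 in Type IIa/IIx-like and 22.2 in slow myonuclei-like nuclei, and neighbours in this order overlapped. In muscle stem cell-like nuclei it was 15.9 CPM (43 UMIs, 95% interval 11.5 to 21.5), against 11.5 CPM in fibro-adipogenic progenitor-like, 10.1 in endothelial-like and 9.22 in macrophage-like nuclei. Type IIb-like myonuclei were 2.15 times the muscle stem cell-like level (95% interval 1.59 to 2.98) and higher in 4 of 4 libraries. The muscle stem cell-like values rested on 19, 10, 12 and 2 Myf6 UMIs in Old, Young, Running and Sedentary. Without the 6% of nuclei with the highest doublet scores the share of muscle stem cell-like nuclei with a Myf6 UMI fell from 2.96% to 2.07%. The 6 listed markers of Type IIb myonuclei were all detected in muscle stem cell-like nuclei of every 10x library, at a summed 7195 to 8747 CPM, and their part in the Myf6 value was not tested.

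The receptors and membrane proteins Chodl, Fgfr4, Megf10 and Calcr had CPM nearer to that of Pax7, before gene length is taken into account. Per kb of gene in muscle stem cell-like nuclei, Calcr and Megf10 (4.91 and 3.45 CPM) stood below Pax7 (11.3 CPM). Chodl and Fgfr4 (59.8 and 38.3 CPM) stood above it. Chodl, which encodes the membrane C-type lectin chondrolectin, was the highest of the 9 genes in muscle stem cell-like nuclei of the 10x set together at 1243 CPM (1165, 1271, 1430.2 and 649 in Old, Young, Running and Sedentary). It was above Pax7 in Old and Running and below it in Young and Sedentary. Fgfr4, a receptor of fibroblast growth factors, stood at 617 CPM (535, 635, 733 and 387). Megf10, a multiple EGF-like domain receptor studied in satellite cell proliferation, spans 164 kb of chromosome 18 (57133090 to 57297467, plus strand) and stood at 567 CPM (424, 745, 447 and 501). Calcr, the calcitonin receptor, stood at 388 CPM (368, 467, 248 and 529). Against Type IIb-like myonuclei the ratios were 572 for Chodl (95% interval 490.4 to 672), 270 for Fgfr4 (231 to 317), 416 for Megf10 (342 to 512) and 703 for Calcr (518 to 977). Against the next highest class they were far smaller. They were 2.52 for Chodl (tenocyte-like), 63.7 for Fgfr4 (T cell-like, 4 UMIs), 4.60 for Megf10 (Schwann-like) and 35.4 for Calcr (unnamed). A UMI was found in 77.5% of muscle stem cell-like nuclei for Chodl, 62.9% for Fgfr4, 57.7% for Megf10 and 40.0% for Calcr, against 0.776%, 0.809%, 0.477% and 0.192% of Type IIb-like nuclei. Thinned to 500 UMIs these were 42.8%, 29.0%, 25.1% and 17.3% against 0.131%, 0.103%, 0.0936% and 0.0281%.

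Spry1, an inhibitor of receptor tyrosine kinase signalling, stood at 103 CPM in muscle stem cell-like nuclei (98.3, 119, 96.7 and 45.5 in Old, Young, Running and Sedentary), which was 3.59 times its level in fibro-adipogenic progenitor-like nuclei (95% interval 3.11 to 4.14). It had a UMI in 17.9% of muscle stem cell-like and 0.557% of Type IIb-like nuclei (thinned, 5.92% and 0.0982%). Longer genes give more UMIs in nuclei, so levels of different genes are compared per kb. Per kb of gene the order in muscle stem cell-like nuclei was Chodl 59.8 CPM, Fgfr4 38.3, Myf5 26.9, Spry1 22.2, Pax7 11.3, Myf6 8.46, Myod1 6.21, Calcr 4.91 and Megf10 3.45. Per kb of exon it began with Chodl at 226 CPM, Pax7 at 187 and Fgfr4 at 174, so that Pax7 moved from the fifth to the second place, and Myod1 at 8.77 was the lowest on this scale.

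**Figure D2:**
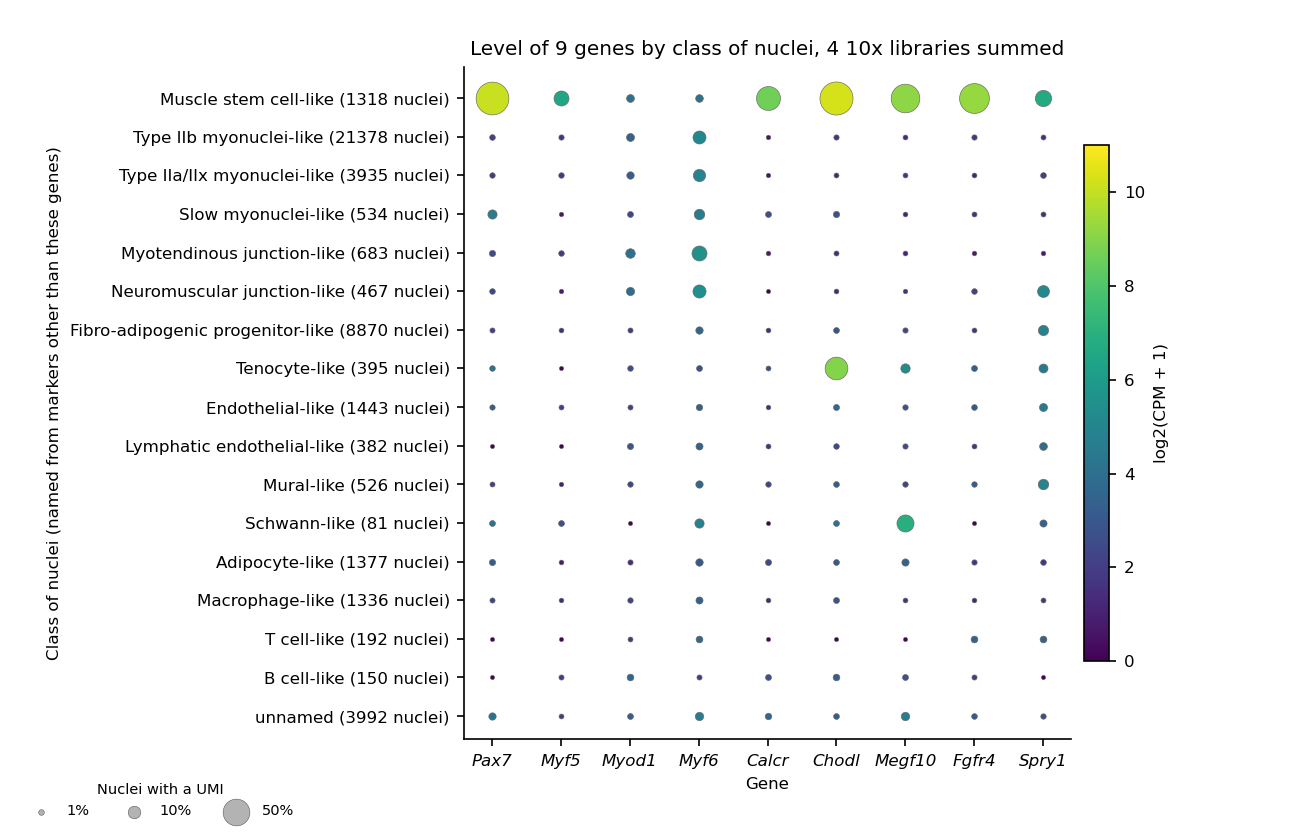
Level of the 9 genes (horizontal axis) in 16 named classes and the unnamed nuclei (vertical axis, with the number of nuclei) of the 4 10x libraries. Colour is log2(CPM + 1) and the area of a dot grows with the share of nuclei with a UMI. The top row, muscle stem cell-like, is high for Pax7, Calcr, Chodl, Megf10 and Fgfr4, the tenocyte-like row for Chodl (494 CPM) and the Schwann-like row for Megf10 (123 CPM).

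Pax7, Calcr, Chodl, Megf10 and Fgfr4 were often seen in the same nuclei. The other genes were seen in fewer muscle stem cell-like nuclei, at 17.9% for Spry1, 14.9% for Myf5, 3.19% for Myod1 and 2.96% for Myf6. Of the 1318 muscle stem cell-like nuclei 98.3% had a UMI of at least 1 of the 9 genes and 91.0% of at least 2, with a median of 4 genes per nucleus (thinned, 85.7% and 53.2%). Among Pax7, Calcr, Chodl, Megf10 and Fgfr4 at least 2 were found in 1177 of these nuclei (89.3%), in 19 of 21378 Type IIb-like nuclei (0.0889%), in 21 of 8870 fibro-adipogenic progenitor-like nuclei (0.237%) and in 18 of 395 tenocyte-like nuclei (4.56%). In the second library set 21 nuclei of Old replicate 2, 10 of Young, 9 of Running and 2 of Sedentary had at least 2 of these 5 genes. Of them 8 were among its 269 fibro-adipogenic progenitor-like nuclei, where Running replicate 2 alone held 24 of 27 Chodl UMIs, in 101 nuclei. Of the 197 muscle stem cell-like nuclei with a Myf5 UMI 171 also had a Pax7 UMI, and of the 42 with a Myod1 UMI 37 did. Of all muscle stem cell-like nuclei 76.1% had a Pax7 UMI. Both Myf5 and Myod1 were seen in 5 nuclei. Nuclei with a UMI of a gene were deeper than those without (a median of 1785 against 1288 UMIs for Pax7), so these overlaps hold depth as well.

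Several of the genes were also found in other classes. Chodl stood at 494 CPM in tenocyte-like nuclei, the cells of tendon, with a UMI in 35.9% of the 395 nuclei (thinned, 18.7%). Its level there was 846 CPM in Old (111 nuclei), 377 in Young (169 nuclei) and 485 in Running (106 nuclei), and Sedentary replicate 1 had 9 such nuclei. Muscle stem cell-like nuclei were 2.52 times higher (95% interval 2.27 to 2.79) in 3 of the 3 libraries with 20 nuclei of both, and tenocyte-like nuclei were 227 times higher than Type IIb-like myonuclei (190 to 274). The 133, 176, 103 and 4 Chodl UMIs of tenocyte-like nuclei in Old, Young, Running and Sedentary stood beside 0, 13, 1 and 0 Pax7 UMIs. In muscle stem cell-like nuclei 841, 1406, 991 and 114 Chodl UMIs stood beside 560, 1524, 708 and 159 Pax7 UMIs. The part of free RNA in these values was not tested. Megf10 stood at 123 CPM in 81 Schwann-like nuclei (23 UMIs, a UMI in 19.8% of nuclei), the glia of peripheral nerve. Of the Megf10 UMIs 16 were in 37 nuclei of Old replicate 1 and 4 in 27 nuclei of Sedentary replicate 1, and these nuclei had 0 Pax7 UMIs in both libraries.

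Spry1 was high at the neuromuscular junction in both library sets. In neuromuscular junction-like myonuclei, which lie under the synapse of the motor nerve, it stood at 34.7 CPM in the 10x set (36.1, 28.9, 37.7 and 34.9 in Old, Young, Running and Sedentary) and at 35.0 CPM in the second library set, there on 11 UMIs. Type IIb-like myonuclei stood at 1.61 and 2.73 CPM, so the ratios were 21.6 (95% interval 15.3 to 30.2, higher in 4 of 4 libraries) and 12.8 (5.88 to 25.7, higher in 3 of 4 libraries). Old replicate 2 was the exception, with 0 Spry1 UMIs in 20 neuromuscular junction-like nuclei. Fibro-adipogenic progenitor-like nuclei held 48.1% of all Spry1 UMIs of the 10x set, at 28.7 CPM (29.1, 34.3, 25.2 and 12.4 in Old, Young, Running and Sedentary), and mural-like nuclei stood at 30.3 CPM. The levels of these 3 classes overlapped.

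Pax7 was higher in slow myonuclei-like than in Type IIb-like nuclei. The levels were 22.2 and 3.22 CPM in the 10x set (ratio 6.88, 95% interval 4.74 to 9.75) and 12 and 4.63 CPM in the second library set (ratio 2.59, 1.23 to 4.97). Slow myonuclei-like nuclei had 21.2 CPM in Old replicate 1 and 21.6 CPM in Sedentary replicate 1, the 2 libraries of the 10x set with at least 20 such nuclei, and they were higher in 3 of 4 libraries of the second set. A Pax7 UMI was in 4.87% of slow myonuclei-like nuclei of the 10x set, thinned 0.936% against 0.154% of Type IIb-like nuclei. Beside the 37 Pax7 UMIs these nuclei held 9 Chodl and 2 Megf10 UMIs. Pax7 levels near those of slow myonuclei-like nuclei were also found in other classes. In the 10x set tenocyte-like nuclei stood at 16.6 CPM (95% interval 9.08 to 27.9), with overlap. In the second set fibro-adipogenic progenitor-like (33.7 CPM) and unnamed nuclei (20.8 CPM) stood above slow myonuclei-like nuclei, with overlapping intervals.

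Myod1 and Myf6 were compared between fibre types. Type IIb-like myonuclei held 65.1% of the Myod1 and 67.8% of the Myf6 UMIs of the 10x set. The libraries gave these fibre types unequal numbers of nuclei and differed in level, so each library is compared within itself. For Myod1 slow myonuclei-like nuclei of the 10x set stood at 3.02 CPM in Old and 4.12 CPM in Sedentary (2 and 4 UMIs) against 5.65 and 5.47 CPM in Type IIb-like nuclei. In the second library set slow myonuclei-like nuclei held 0 to 3 Myod1 UMIs per library, too few for an order. For Myf6 slow myonuclei-like nuclei stood at 33.2 CPM in Old and 15.4 CPM in Sedentary of the 10x set against 43.4 and 34.1 CPM in Type IIb-like nuclei, and in the second set Type IIb-like nuclei were higher in 3 of 4 libraries. Against Type IIa/IIx-like nuclei Myod1 was higher in Type IIb-like nuclei in 1 of 4 libraries of the 10x set and in 3 of 4 of the second, with Young replicate 2 the exception (3.31 against 5.38 CPM). There the Type IIa/IIx-like values of Old, Running and Sedentary rested on 0, 6 and 1 UMIs. Myf6 was higher in Type IIb-like than in Type IIa/IIx-like nuclei in 3 of 4 libraries of the 10x set and in 4 of 4 of the second, at 22.7, 36.7, 60.5 and 74.7 CPM against 14.7, 24.99, 31.0 and 41.4 CPM in Old, Young, Running and Sedentary.

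Among the unnamed clusters of the second library set, 1 of 247 nuclei had the highest Myf6 level. Its leading genes were A430010J10Rik, Sh3d19, Gadd45a, Rrad, Cilp, Gm34804, Mfsd7a, Olfml2a, Runx1 and Colq. Myf6 stood there at 138 CPM (55 UMIs) and Myod1 at 75.0 CPM (30 UMIs), against 56.6 and 15.0 CPM in Type IIb-like myonuclei of the same set. The cluster held 125 nuclei of Sedentary replicate 2 (2.95% of that library), with Myf6 at 281 CPM (95% interval 205 to 376), and 32 nuclei of Running replicate 2, with Myod1 at 137 CPM on 9 UMIs. Young replicate 2 gave 52 and Old replicate 2 gave 38 nuclei, with 7 and 0 Myf6 UMIs. Pax7 was near 0 in it, at 2 UMIs.

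Across all nuclei of a library the order of the groups depended on the library set for most of the 9 genes. In the following sentences CPM are given for Old, Young, Running and Sedentary, for replicate 1 and then for replicate 2. In bulk sums of this kind fewer nuclei of a class and less RNA per nucleus cannot be told apart. Pax7 was at 16.9, 44.0, 19.1 and 14.7 CPM in the 10x set and at 25.1, 6.84, 5.47 and 3.36 CPM in the second library set. Young was the highest library of the 10x set and Old the highest of the second. Myf5 was at 4.40, 3.73, 3.21 and 3.27 CPM and at 2.0, 1.54, 3.01 and 2.73 CPM, with overlap of all groups. Myod1 was at 4.68, 8.43, 12.1 and 4.73 CPM and at 2.99, 7.50, 17.9 and 24.8 CPM, lower in both Old libraries than in both Young libraries. Myf6 was at 31.5, 22.1, 26.4 and 28.6 CPM and at 16.6, 42.5, 55.9 and 76.4 CPM, and the 2 sets put Old and Young in opposite order.

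The receptors and Spry1 split by library set too. Calcr was at 8.21, 13.9, 4.88 and 7.79 CPM and at 27.3, 4.96, 5.19 and 2.52 CPM. Megf10 was at 10.5, 25.2, 9.44 and 11.4 CPM and at 48.3, 8.49, 5.06 and 2.73 CPM. Old replicate 2 was the highest of all 8 libraries for both genes, and Young was the highest of the 10x set. Chodl was at 29.2, 43.1, 28.4 and 7.49 CPM and at 14.8, 7.94, 11.1 and 5.67 CPM. Fgfr4 was at 12.3, 20.2, 14.0 and 5.46 CPM and at 7.38, 2.65, 4.10 and 2.10 CPM. Spry1 was at 11.8, 11.8, 7.36 and 3.27 CPM and at 4.59, 4.41, 6.01 and 3.36 CPM. For Pax7, Chodl, Fgfr4 and Spry1 the Sedentary library was the lowest of its set in both sets.

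**Figure D3:**
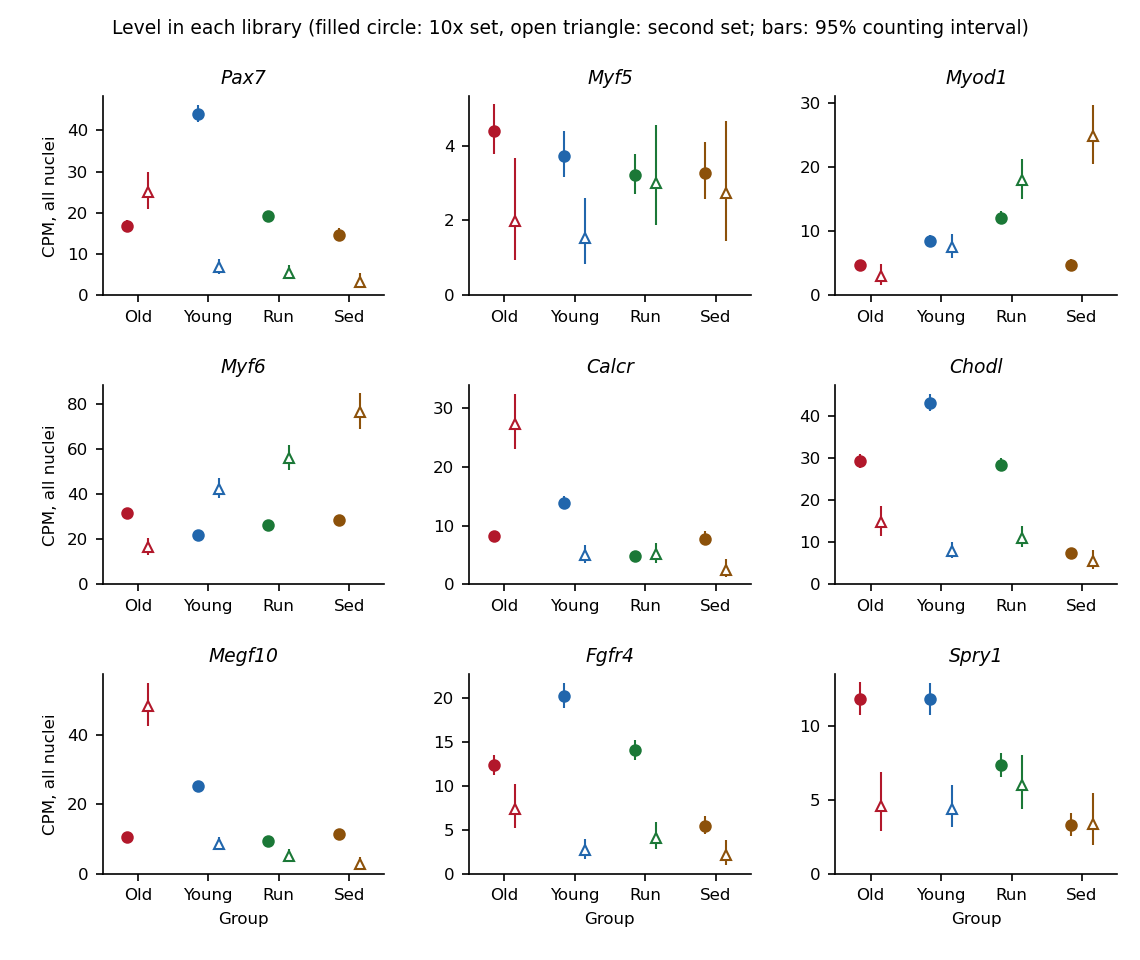
Level in CPM (vertical axes, from 0) of each of the 9 genes in all nuclei of each of the 8 libraries, by group (horizontal axes, with Run for Running and Sed for Sedentary). Filled circles are the 10x set, open triangles the second library set, and bars are 95% Poisson intervals. For Pax7, Calcr and Megf10 Old is below Young in the 10x set and above it in the second.

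Old and Young were compared to ask which genes move with age. None of the 9 genes was called (edgeR quasi-likelihood F-test, Benjamini-Hochberg adjustment over 20324 genes tested), as 0% of all genes tested were called in this comparison. Over all genes 557 had an unadjusted p under 0.05 in edgeR, and DESeq2 called 0 with 1174 under 0.05. The fitted log2 difference, Old minus Young, was -0.08 for Pax7 (SE 0.70), -0.07 for Myf5 (SE 0.77), -1.31 for Myod1 (SE 0.82), -0.51 for Myf6 (SE 0.68) and -0.33 for Spry1 (SE 0.67). It was 0.51 for Calcr (SE 0.79), -0.37 for Chodl (SE 0.56), 0.57 for Megf10 (SE 0.87) and -0.17 for Fgfr4 (SE 0.62). The smallest edgeR adjusted p among the 9 genes was 0.693, for Myod1, and over its alternatives it ranged from 0.119 to 1. The median log2 difference of the 9 genes was -0.17, against 0.19 for all genes tested.

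The 2 library sets gave opposite directions for 6 of the 9 genes, and Old replicate 2 decided several fitted values. In the 10x set the ratio of Old to Young was 0.384 for Pax7 (95% interval 0.351 to 0.420), 0.416 for Megf10 (0.370 to 0.467) and 0.591 for Calcr (0.513 to 0.679). In the second library set it was 3.68 (2.69 to 5.07), 5.69 (4.38 to 7.45) and 5.51 (3.91 to 7.89). Megf10, Pax7 and Calcr are the 3 longest of the 9 genes, at 79.0 to 164 kb. The 2 shortest, Myf6 and Myod1 at 1.89 and 2.63 kb, had ratios of 0.390 and 0.399 in the second library set. The unnamed cluster led by long genes held 92.9% of the Pax7, 89.8% of the Calcr and 87.2% of the Megf10 UMIs of Old replicate 2, but in it a UMI of these genes was in only 2.88%, 3.09% and 5.36% of nuclei. Genes over 100 kb took 42.8% of the UMIs of Old replicate 2 against 34.9% to 36.5% in the other libraries of its set and 44.1% to 48.6% in the 10x set. The part of gene length in these ratios was not tested. Without Old replicate 2 the fitted log2 differences were -1.37 for Pax7, -1.41 for Megf10, -0.73 for Calcr, -0.58 for Fgfr4 and 0.43 for Myf6, none of them called, with the lone Old library assumed to vary like the other groups.

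Myod1 was the only gene of the 9 with a lower level in Old within each library set, at ratios of 0.556 (95% interval 0.461 to 0.667) and 0.399 (0.212 to 0.705). Of all genes tested 10.5% were lower in Old in both sets. Myf5 and Spry1 were higher in Old in both sets, 2 of 9 against 51.1% of all genes tested, and both had intervals that held 1 in both sets. The fitted differences of these 2 genes lay below 0, and the cause of that difference in sign was not tested. With 2 libraries on each side an exact permutation test gives no two-sided p below 0.333.

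In muscle stem cell-like nuclei, which the 10x set alone could resolve, there was 1 library per group and no test. Of the genes whose interval left out 1, Pax7 and Megf10 had the lowest ratios of Old to Young. The ratio of Old to Young was 0.563 for Pax7 (95% interval 0.510 to 0.620), 0.569 for Megf10 (0.497 to 0.649), 0.789 for Calcr (0.678 to 0.917), 0.842 for Fgfr4 (0.742 to 0.955) and 0.916 for Chodl (0.840 to 0.998). The intervals of Spry1, Myf5 and Myod1 held 1, and Myf6 was 2.91 (1.29 to 7.0) on 19 and 10 UMIs. A sum over all nuclei holds the class's share of UMIs and the levels inside and outside the class, given here for Pax7 and Chodl. With 1 library per group the cause of these ratios was not tested. For Pax7 the ratio of Young to Old over all nuclei was 2.60, the class took 1.51 times as large a share of UMIs (2.79% against 1.85%) and its level was 1.78 times as high. For Chodl these were 1.48, 1.51 and 1.09. Outside the class the ratio of Young to Old was 2.18 for Pax7 (5.74 against 2.63 CPM) and 0.999 for Chodl (7.81 against 7.82 CPM). The 11 non-member markers of the class were all detected in both libraries, at a summed 2130 CPM in Old and 2742 CPM in Young.

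**Figure D4:**
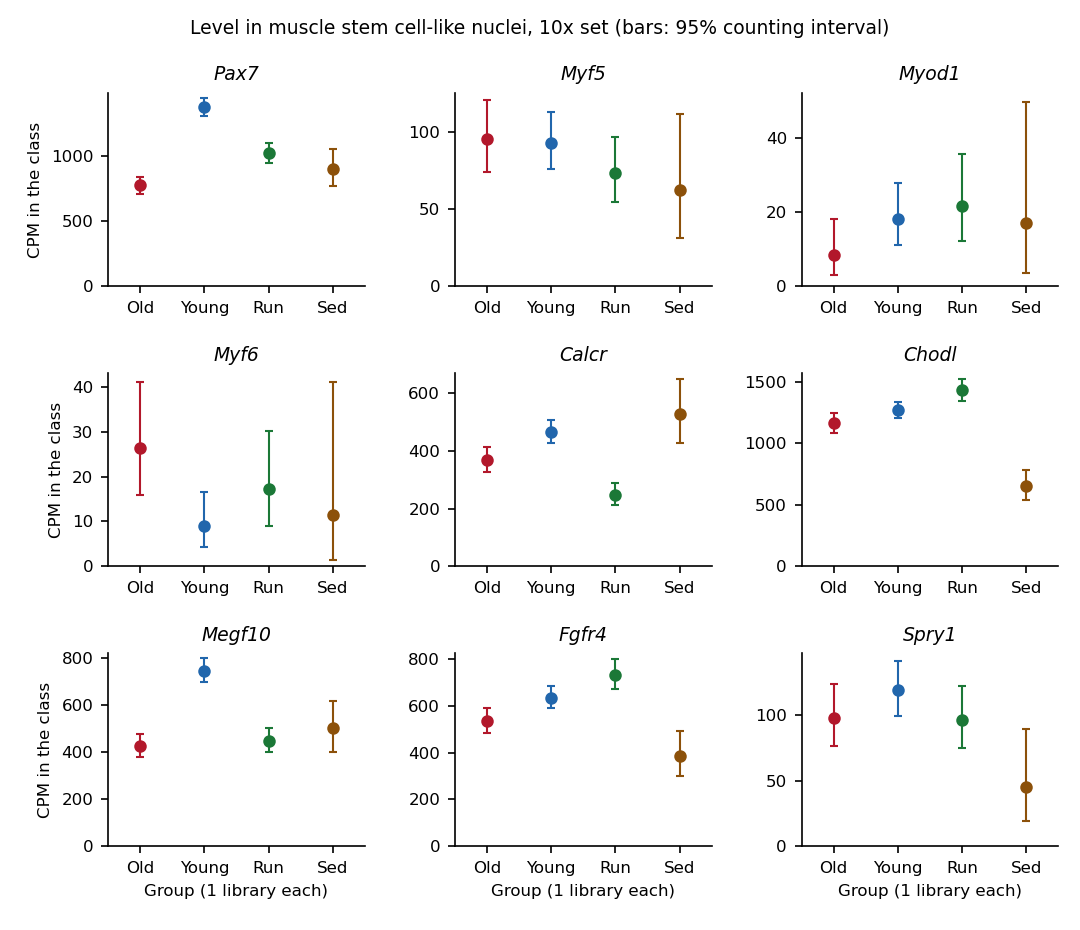
Level in CPM (vertical axes, from 0) of the 9 genes in muscle stem cell-like nuclei of the 10x library of each group (horizontal axes). Bars are 95% Poisson intervals and there is 1 library per group. Pax7 ranges from 775 CPM in Old to 1378 in Young, and Chodl from 649 in Sedentary to 1430.2 in Running.

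Running and Sedentary were compared to ask which genes move with exercise. Chodl was the gene with the largest fitted difference among the 9, and it was not called. Its fitted log2 difference, Running minus Sedentary, was 1.42 (SE 0.59, 95% interval 0.05 to 2.78, unadjusted edgeR p 0.0439, edgeR adjusted p 1), and over its alternatives the adjusted p ranged from 0.0841 to 1. Of all 20324 genes tested 0% were called in this comparison, with 98 at an unadjusted p under 0.05 in edgeR, and DESeq2 called 0 with 392 under 0.05. The log2 difference was 1.21 for Fgfr4 (SE 0.64), 1.01 for Spry1 (SE 0.70), 0.54 for Pax7 (SE 0.67), 0.17 for Megf10 (SE 0.83), 0.13 for Myod1 (SE 0.82), 0.10 for Myf5 (SE 0.78), 0.09 for Calcr (SE 0.78) and -0.31 for Myf6 (SE 0.66). The median of the 9 genes was 0.17 against -0.04 for all genes tested.

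Pax7, Chodl, Fgfr4 and Spry1 were higher in Running in both library sets, 4 of 9 genes against 25.9% of all genes tested. For Chodl the ratios were 3.79 (95% interval 3.23 to 4.47) in the 10x set and 1.95 (1.25 to 3.14) in the second library set. For Fgfr4 they were 2.57 (2.12 to 3.14) and 1.95 (0.929 to 4.48), for Spry1 2.25 (1.75 to 2.93) and 1.79 (0.990 to 3.40), and for Pax7 1.31 (1.15 to 1.48) and 1.63 (0.891 to 3.11). Over all nuclei Chodl was the only 1 of the 4 whose interval left out 1 in both sets. In the second set this rested on nuclei named fibro-adipogenic progenitor-like. Running replicate 2 held 24 of its 81 Chodl UMIs in 101 such nuclei, and without these nuclei the ratio of the second library set was 1.49 (0.916 to 2.49). In that set this class also ranked first for Pax7 (33.7 CPM), Calcr (31.3 CPM) and Fgfr4 (26.5 CPM), on 14, 13 and 11 UMIs. Whether it held satellite cells was not tested, so leaving it out may remove them too. In the 10x set the Chodl ratio was 4.23 (3.59 to 5.0) without fibro-adipogenic progenitor-like nuclei. Without them the Spry1 ratios were 1.65 (1.23 to 2.25) in the 10x set and 1.96 (1.05 to 3.89) in the second. The intervals of Spry1 thus left out 1 in both sets once these nuclei were removed. Those of Pax7 and Fgfr4 still held 1 in the second set. Myf6 was lower in Running in both sets, 1 of 9 genes against 25.9% of all genes tested in that direction. Myod1 went in opposite directions, with 2.56 (2.08 to 3.17) in the 10x set and 0.723 (0.559 to 0.935) in the second, as did Calcr with 0.626 (0.512 to 0.767) and 2.06 (1.05 to 4.33), the latter 1.66 (0.803 to 3.70) without fibro-adipogenic progenitor-like nuclei.

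**Figure D5:**
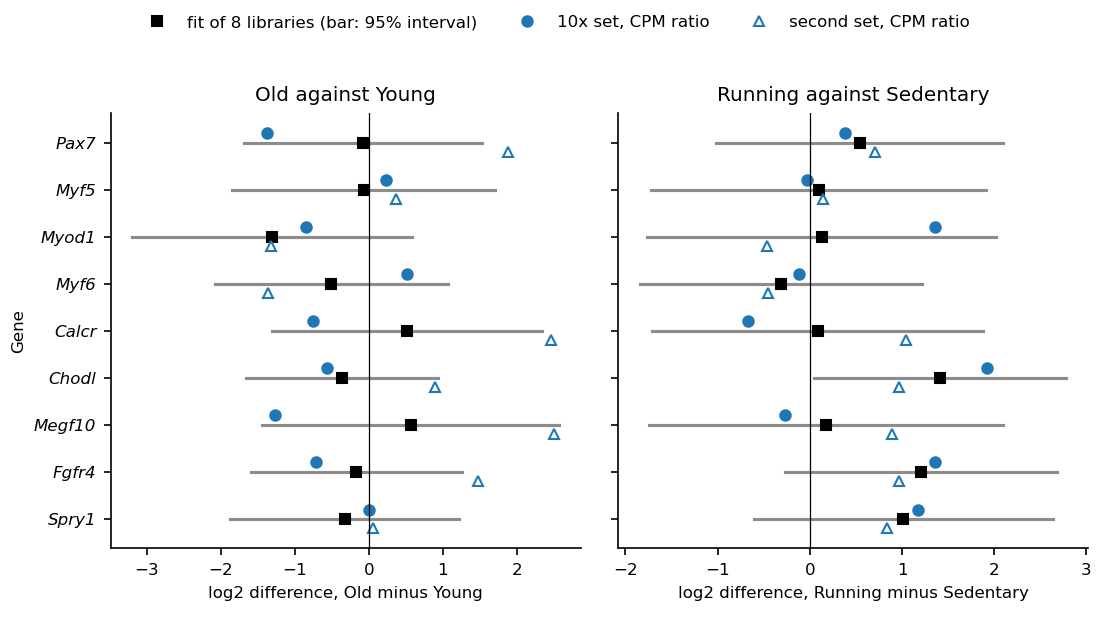
Log2 difference (horizontal axes) of the 9 genes (vertical axis), Old minus Young and Running minus Sedentary. Squares and bars are the edgeR fit of all 8 libraries with its 95% interval, circles and triangles are the log2 ratio of CPM within the 10x and the second library set. For Old minus Young the sets lie on opposite sides of 0 for 6 genes, and for Running minus Sedentary the interval of Chodl alone lies above 0, at 0.05 to 2.78.

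Within muscle stem cell-like nuclei of the 10x set Chodl and Fgfr4 stood higher and Calcr lower in Running. The ratio of Running to Sedentary was 2.20 for Chodl (95% interval 1.81 to 2.70), 1.89 for Fgfr4 (1.47 to 2.48), 2.12 for Spry1 (1.02 to 5.12, 8 UMIs in Sedentary) and 0.469 for Calcr (0.362 to 0.610). Pax7 at 1.13 (0.949 to 1.35) and Megf10 at 0.893 (0.703 to 1.15) had intervals that held 1, as had Myf5, Myod1 and Myf6. The class took 1.56% of UMIs in Running and 0.756% in Sedentary, a ratio of 2.07. The Sedentary value rests on 137 nuclei with a median of 973 UMIs, against 331 with 1603 in Running. Its 11 non-member markers summed to 1958 CPM against 2377 CPM, with 1 of the 11 at 0, and the part of this library in the result was not tested.

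Within classes found in all libraries of a comparison no member was called. In Type IIb-like myonuclei all 9 genes were tested, and 0% of 16969 genes were called in either comparison. There Myod1 stood at 5.65, 10.7, 13.1 and 5.47 CPM in the 10x set and at 4.54, 3.31, 18.0 and 22.8 CPM in the second library set, on 3 UMIs in Old replicate 2. Myf6 stood at 43.4, 29.0, 33.5 and 34.1 CPM and at 22.7, 36.7, 60.5 and 74.7 CPM, so that the groups overlapped for both genes. The fitted log2 differences in this class were -0.65 (SE 0.80) for Myod1 and 0.03 (SE 0.45) for Myf6 in Old minus Young, and 0.18 (SE 0.75) and -0.22 (SE 0.43) in Running minus Sedentary. In Type IIa/IIx-like myonuclei Myod1 stood at 14.6 CPM in Running and 3.95 CPM in Sedentary in the 10x set and at 8.45 and 2.59 CPM in the second, the latter on 6 UMIs and 1 UMI. Its log2 difference of 1.87 (SE 0.78) had an unadjusted edgeR p of 0.0306 and an edgeR adjusted p of 1, and 0% of 11854 genes were called in either comparison of that class.

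Fibro-adipogenic progenitor-like nuclei could be tested between Running and Sedentary alone. Of 13393 genes 0.0971% were called, none of them among the 9. Spry1 had a log2 difference of 0.69 there (SE 0.68) and Chodl of 1.20 (SE 0.84), where Running replicate 2 held most of the Chodl UMIs of its set. In myotendinous junction-like and neuromuscular junction-like myonuclei only Myf6 passed the filter on low counts. The share called in these classes was 0% of 5622 genes in both comparisons at the myotendinous junction, and 0.068% (Old against Young) and 0.0907% (Running against Sedentary) of 4412 genes at the neuromuscular junction. Myf6 differed there by 1.14 (SE 0.85) in Old minus Young and by -0.44 (SE 0.78) in Running minus Sedentary. In the 4 class comparisons with 0 calls in Type IIb-like and Type IIa/IIx-like nuclei edgeR gave 674, 237, 532 and 352 genes at an unadjusted p under 0.05, and at the myotendinous junction 173 and 167.

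Other genes of the myogenic programme were counted from 7 lists. None of their genes was called in either comparison over all nuclei (edgeR, adjusted over all 20324 genes). Of the differentiation and fusion list 7 of 9 genes were tested, 1 above and 6 below 0 in Old minus Young, with a median of -0.60 against 0.19 for all genes. Of the other myogenic lineage regulators 7 of 8 were tested, with a median of -0.59 in Old minus Young. In Running minus Sedentary their median was 0.26 against -0.04 for all genes, and 7 of 7 lay above 0. An unadjusted edgeR p under 0.05 was found for 2 of the 7 in Old minus Young and for 0 in Running minus Sedentary. The share of all genes on each side of 0 was not counted. The FGF and HGF signalling list had medians of -0.07 and 0.21 (13 of 14 tested), Notch of -0.01 and 0.11 (11 of 11), the helix-loop-helix partners and inhibitors of -0.16 and -0.02 (6 of 8), the calcitonin receptor relatives and niche ligands of 0.31 and 0.40 (7 of 9) and the cell cycle of 0.16 and -0.03 (7 of 9).

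In muscle stem cell-like nuclei the levels of the other named genes ranged widely. No other class is given as a reference for them, and the part of free RNA in these values was not tested. The 6 listed markers of Type IIb myonuclei summed to 7195 to 8747 CPM in the same nuclei. Myog, the factor of terminal differentiation, had 4, 1, 2 and 0 UMIs in Old, Young, Running and Sedentary, and the proliferation marker Mki67 had 2, 0, 1 and 2. Mef2c, a cofactor of the helix-loop-helix factors from the same differentiation list, stood at 919, 1007, 964 and 1093 CPM. Pax3, the paralogue of Pax7, had 11, 97, 78 and 10 UMIs, or 15.2, 87.7, 113 and 56.9 CPM, so that Old had the lowest level. The adhesion molecules Vcam1 and Cdh15 stood at 162, 282, 237 and 108 CPM and at 92.8, 118, 90.9 and 22.8 CPM, and the Notch target Heyl at 98.3, 159, 113 and 108 CPM. Vcam1, Cdh15 and Heyl are on the marker list used to name this class, so their presence in it is not independent of the name. Among receptors Fgfr1 stood at 726, 677, 634 and 472 CPM, Met, the receptor of HGF, at 62.3, 131, 67.8 and 114 CPM and Calcrl, a relative of Calcr, at 177, 177, 117 and 108 CPM. Of the relatives of Spry1, Spry2 had 29, 46, 30 and 6 UMIs and Spry4 had 8, 31, 9 and 1.

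The genes most like each member were sought across 56 sums of a library and a class of the 10x set (16 classes, 19117 genes, Pearson r of log2(CPM + 1)). These sums share libraries and classes, so r is a description. Pax7 was most like Ntn5 (r 0.87), Tmem61 (0.85) and Sec1 (0.81), and Calcr was most like Ntn5 (0.86), Gm26834 (0.85) and Tmem61 (0.83). Fgfr4 was most like Tmem61 (0.80), Sec1 (0.80) and Gm26834 (0.77), and Myf5 was most like Sec1 (0.80), Tmem61 (0.77) and Chrdl2 (0.77). These 4 genes drew their likest genes from the same few names. Chodl was most like Steap2 (0.81), Hs6st3 (0.77) and Calcr (0.77), and Megf10 was most like Ptprz1 (0.81), Drp2 (0.79) and Frem1 (0.77). Spry1 was most like Fam20a (0.77), Mindy4 (0.73) and Rbms3 (0.71). Myf6 was most like Mettl11b (0.79), Alg6 (0.76) and Ttll11 (0.75), and Myod1 was most like Mpp3 (0.69), 2310040G24Rik (0.69) and Fn3k (0.68).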

How the data were processed

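The authors deposited 1 filtered matrix of raw UMI counts per library. Per the submitters' processing notes and the study's methods, Cell Ranger 6.1.2 counted the reads of the 10x set on mm10 and Seurat 4.1.1 was used on the nuclei. Whether intronic reads were counted is not given in the sources used here. Of 65280 nuclei 64803 passed the limits of the study, with over 200 and under 6000 genes detected and less than 6% of counts from mitochondrial genes. The sums left out 12 mitochondrial and 83 ribosomal protein genes.

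Each library set was clustered on its own (scanpy 1.11.5, leidenalg 0.10.2, 2000 variable genes, 30 components, 20 neighbours, resolution 1) without the 9 genes. Clusters were named from 16 marker lists, with limits chosen once the clusters were known (at least 3 markers at 2-fold or more, leading genes with a median length up to 300 kb, and for Type IIb-like also 3 of its 6 markers near their highest level with Myh4 at 66% or more of fibre myosin UMIs). Doublets stayed in, since Scrublet marked 0% in 5 of the 8 libraries. They were dropped, as the top 6% of scores, in an alternative.

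Intervals are at 95% and exact: Poisson for CPM, conditional for ratios and binomial for shares. Thinned shares rest on 500 UMIs per nucleus, and 54 nuclei below that were left out. Counts summed per library, or per library and class with at least 20 nuclei, were tested by the quasi-likelihood F-test of edgeR 4.0.16 (R 4.3.3) after filterByExpr and TMM scaling, with Benjamini-Hochberg adjustment, a threshold of 0.05, and group and library set as terms in 1 fit of all 8 libraries (biological coefficient of variation 0.542, 3 residual degrees of freedom). On counts simulated with that spread the fit of 20324 genes recovered 0% (Old against Young) and 1% (Running against Sedentary) of 4-fold changes, and 93% and 95% at a coefficient of 0.1. So at this spread 0 calls say little.

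The 9 genes, lists and markers were chosen with earlier results of these data known. Named beside the 9 were 10 genes of the context lists or of the muscle stem cell marker list (Cdh15 and Vcam1 of the latter alone). For each of the 9, the 3 genes with the highest correlation among those with at least 50 UMIs were also named. Mki67, Mef2c, the leading genes of 1 unnamed cluster, the pairs of classes compared and the ratios without fibro-adipogenic progenitor-like nuclei were chosen after values were seen. The alternatives tried were DESeq2 1.42.0, other scaling, a fit without the low-count filter or without the library set, a fit of fewer libraries, all nuclei, other clustering, and each library left out.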

Additional observations from a re-analysis of the deposited data

How the results depend on the processing

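With no member called, the alternatives bear on direction and on counts. Over the alternatives that kept all libraries, the 9 log2 differences kept their direction in 63 of 63 refits for Old against Young and in 62 of 63 for Running against Sedentary, where Calcr gave -0.0033 with no library set term. Leaving out 1 library turned 14 of 72 and 8 of 72, and none of these passed the threshold. For Old minus Young the range was -1.37 to 0.87 for Pax7, -0.82 to 0.38 for Myf5, -2.20 to 0.43 for Myf6, -0.73 to 1.44 for Calcr, -0.99 to 0.50 for Chodl, -1.41 to 1.73 for Megf10, -0.86 to 0.75 for Fgfr4 and -1.20 to 0.18 for Spry1. For Running minus Sedentary it was -0.46 to 0.59 for Myf5, -0.87 to 1.93 for Myod1, -0.87 to 0.50 for Myf6, -0.48 to 0.91 for Calcr and -0.41 to 1.16 for Megf10. A fit that leaves an arm with 1 library assumes that it varies like the other groups.

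Over all genes and nuclei, 4 (Old against Young) and 81 (Running against Sedentary) were called with only the 4 libraries of the comparison. Leaving out 1 library gave 0 to 8 and 0 to 423, the last without Sedentary replicate 2. With no library set term 0 were called in fibro-adipogenic progenitor-like and, in both comparisons, in neuromuscular junction-like nuclei. Leaving out 1 library gave 0 to 62 in fibro-adipogenic progenitor-like nuclei. It gave, for Old against Young and then Running against Sedentary, 0 to 37 and 0 to 28 at the myotendinous junction, 0 to 23 and 0 to 44 at the neuromuscular junction, 1 to 55 and 0 to 119 in Type IIa/IIx-like, and 0 to 1 and 0 to 20 in Type IIb-like nuclei. The cause was not tested.

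The share of UMIs in muscle stem cell-like nuclei at resolution 2.0 was 80.7% for Pax7, 76.1% for Chodl and 80.0% for Fgfr4, and without doublets 0.661% for Myf6, with 2.07% of nuclei having a Myf6 UMI. Shares of nuclei thinned to 500 UMIs were 41.2% for Pax7, 4.86% for Myf5, 1.37% for Myod1, 0.683% for Myf6, 17.3% for Calcr, 42.8% for Chodl, 25.1% for Megf10, 29.0% for Fgfr4 and 5.92% for Spry1, lower by construction. Leaving out each 10x library in turn, an alternative added after seeing the data, gave shares of UMIs of 77.1% to 85.8% for Pax7, 33.6% to 48.3% for Myf5, 74.0% to 87.7% for Calcr, 75.7% to 80.0% for Chodl, 64.4% to 78.8% for Megf10, 78.2% to 83.9% for Fgfr4 and 16.9% to 23.8% for Spry1. It gave shares of nuclei with a UMI of 70.5% to 78.2% for Pax7, 37.0% to 43.5% for Calcr, 73.3% to 81.5% for Chodl, 48.9% to 60.4% for Megf10, 60.2% to 66% for Fgfr4 and 15.5% to 19.3% for Spry1. No paired analysis was possible because replicate numbers were given in deposition order and pair no libraries, and the library set, which the fits hold as a term, takes that place.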
